A study of Rattus norvegicus with 8 samples.

Results

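B cell and plasma cell genes were described in rat sciatic nerve, with 9 genes named by symbol: Cd79a, Cd79b, Ms4a1, Cd22, Blk, Pax5, Pou2af1, Mzb1 and Jchain. Of the 32545 Ensembl genes with a value, 8 carried a symbol of this list, and no row carried the symbol Cd79a. A row with the deposited symbol AABR07002700.1 (ENSRNOG00000020125) is described there as the CD79a molecule, and its NCBI gene number is that of Cd79a in RefSeq. Its values are given as Cd79a by gene ID, outside the counts over the 8 members. The genes were selected on their normalized counts in these same libraries, where B cell and plasma cell genes were already known to differ between PEG-fused and NC allografts, so their values are a description and carry no test.

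Poly-A RNA from sciatic nerve of outbred female Sprague Dawley rats (Envigo), aged 3 to 6 months, was sequenced in 8 libraries, 1 per animal. PEG-fused PNAs (peripheral nerve allografts, n = 3) were donor nerve segments joined to the host nerve with polyethylene glycol (PEG), a polymer that fuses the membranes of cut axons. NC PNAs (negative control, n = 3) received the same surgery and the same wash solutions, with methylene blue, but no PEG. Both kinds of allograft came from genetically different, unmatched rats, the hosts received no immunosuppression, and grafts were excised 14 days postoperatively (PO). Unop nerves (n = 2) were unoperated sciatic nerves. All values are normalized read counts, which are reads per gene divided by a size factor of the library, and genes received 32472925 to 39959620 reads in each library. Such a count depends on the length of the transcript, so levels are compared between libraries within a gene and not between genes.

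B cells recognise antigen through a surface immunoglobulin whose signal is carried by the CD79a and CD79b chains. Activated B cells can mature into plasma cells, which lose much of this receptor apparatus and secrete antibody, and antibody against donor antigens is a known arm of allograft rejection. A healthy peripheral nerve holds few B cells. In bulk tissue, fewer cells of a type and less RNA per cell cannot be told apart.

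Promoter sequences are shown for the members with an entry in the RefSeq table of the GRCr8 assembly, since B lineage genes are classically controlled near their start sites. Of the 9 genes, 3 had an entry. Each sequence is the 250 bases before the gene's start, read 5′ to 3′ on the strand of the gene, and capitals mark the letters GAGGAA or their reverse complement, a core of sites for PU.1, a transcription factor of B and myeloid cells.
Cd79a, chr1:89621210-89621459, plus strand: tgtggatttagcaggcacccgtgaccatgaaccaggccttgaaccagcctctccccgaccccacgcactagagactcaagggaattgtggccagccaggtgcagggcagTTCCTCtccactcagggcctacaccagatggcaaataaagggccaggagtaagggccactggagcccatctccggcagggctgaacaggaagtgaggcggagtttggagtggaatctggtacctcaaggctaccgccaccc
Cd22, chr1:95259731-95259980, minus strand: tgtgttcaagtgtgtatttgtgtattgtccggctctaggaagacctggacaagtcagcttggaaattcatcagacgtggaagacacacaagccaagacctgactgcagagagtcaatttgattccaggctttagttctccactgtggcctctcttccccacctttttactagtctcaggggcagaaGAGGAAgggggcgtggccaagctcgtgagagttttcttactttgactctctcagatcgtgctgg
Jchain, chr14:19822726-19822975, plus strand: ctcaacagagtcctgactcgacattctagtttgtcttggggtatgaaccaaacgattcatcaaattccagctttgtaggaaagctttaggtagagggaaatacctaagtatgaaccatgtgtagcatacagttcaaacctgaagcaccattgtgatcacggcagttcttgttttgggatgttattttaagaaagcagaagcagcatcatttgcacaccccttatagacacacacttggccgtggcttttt
Cd79a held 1 such match, 141 bases before the start, and Cd22 held 1, 64 bases before it. GAGGAA was found in 23.3% of the 33469 promoters of this length, on either strand. The octamer ATGCAAAT, which Oct proteins and their B cell partner encoded by Pou2af1 bind, was found in 1.56% of them, and CCCNNGGG, a core of sites for the B cell factor EBF1, in 10.8%. Neither set of letters was in these 3 windows. Only these exact letters were searched, so a site that departs from them would be missed, and absence of a site is not shown.

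Values of the members were highest in NC PNAs, intermediate or low in PEG-fused PNAs and lowest or nearly so in Unop nerves. All 8 members were lower in each PEG-fused library than in each NC library, as were 23.3% of the 16478 genes tested. By the threshold for differentially expressed genes (DEGs), a log2 fold change above 1 or below −1 with an adjusted p under 0.05 (limma), 7 of 8 were lower in PEG-fused than in NC PNAs, beside 7.14% of tested genes. Since the choice of members used these libraries, the counts of members past the threshold, here and against Unop nerves, are descriptions from which nothing is read. The median log2 fold change of the 8 members was −2.54, and that of all tested genes was 0.0017. It was −1.87 when 8 was added to the counts before taking logs in place of 1.

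**Figure D1:**
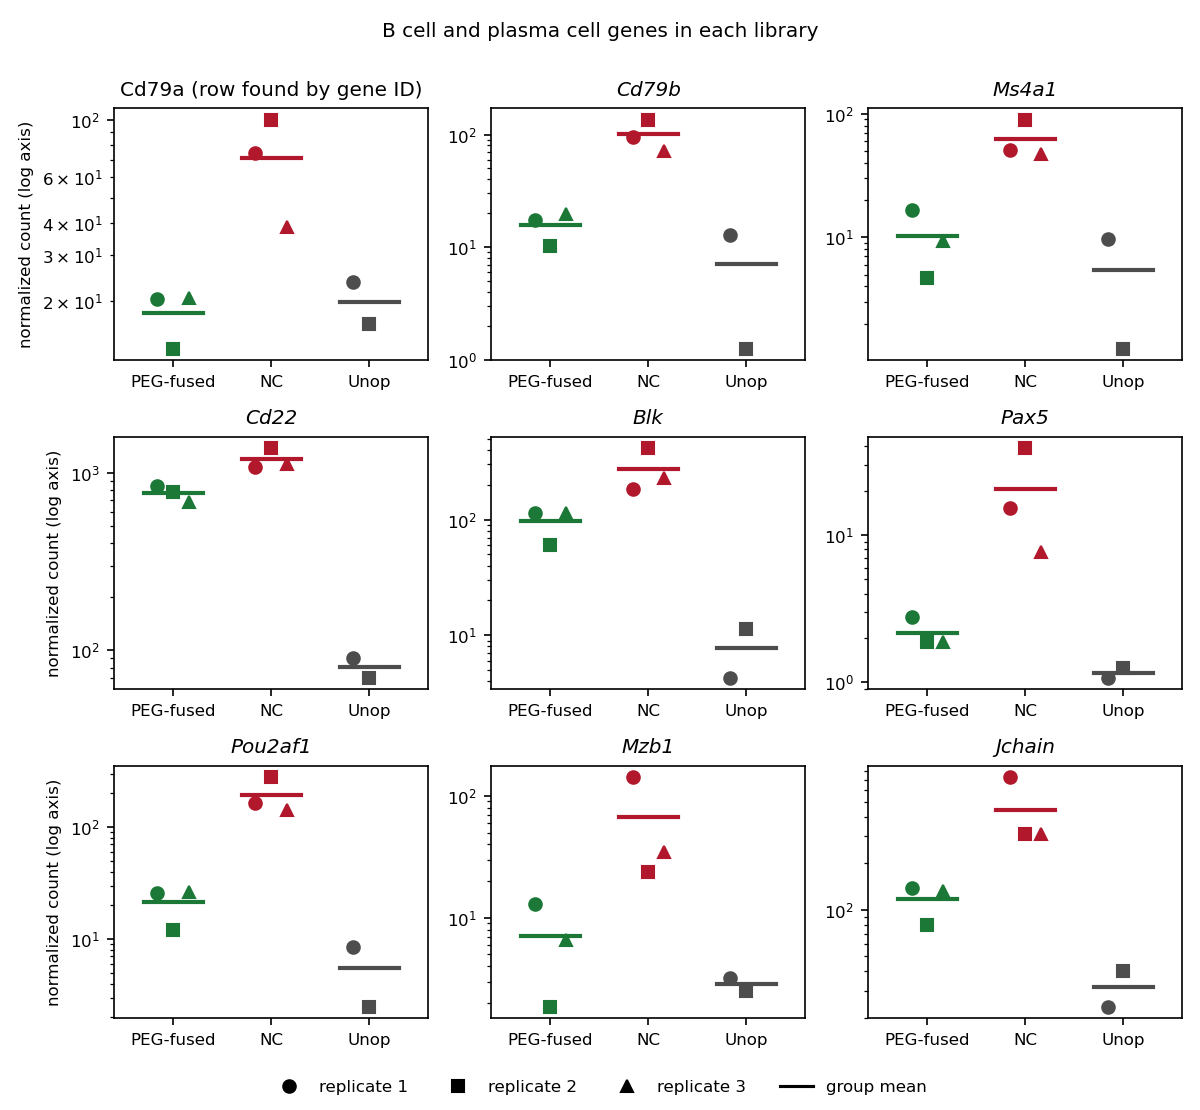
Normalized read count of each gene (log axis, scaled for each panel) in 3 PEG-fused, 3 NC and 2 Unop libraries. Points are libraries, with 1 marker shape per replicate number, and lines are group means. Every PEG-fused point lies below every NC point in all 9 panels, while PEG-fused and Unop points overlap for Cd79a, Cd79b, Ms4a1 and Mzb1.

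Receptor genes of the B cell surface had low counts in PEG-fused PNAs. Cd79b (ENSRNOG00000011917), the second signalling chain of the receptor, measured 17.6, 10.3 and 19.7 in PEG-fused PNAs, 94.7, 135.5 and 71.4 in NC PNAs, and 12.9 and 1.25 in Unop nerves. The NC range lay well above the others, and the Unop nerves differed widely from each other, on 12 reads against 1 read. The log2 fold change of Cd79b was −2.59 ± 0.63 (SE) in PEG-fused against NC PNAs and 1.55 ± 0.71 against Unop nerves. Cd79a by gene ID, the first chain, measured 20.4, 13.1 and 20.6 in PEG-fused PNAs, 74.2, 100.0 and 38.6 in NC PNAs, and 23.6 and 16.3 in Unop nerves. Its PEG-fused and Unop values overlapped, with a log2 fold change of −0.14 ± 0.44 between them and of −1.84 ± 0.39 between PEG-fused and NC PNAs. RefSeq gives Cd79al as another name of this gene, and a separate row with the symbol Cd79al (ENSRNOG00000049925) measured 2.89 in NC 3 and 0 in the other libraries.

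Ms4a1 (ENSRNOG00000020945), which encodes the B cell marker CD20, had a like pattern. It measured 16.7, 4.67 and 9.38 in PEG-fused PNAs, 50.9, 89.3 and 47.3 in NC PNAs, and 9.66 and 1.25 in Unop nerves. Its log2 fold change was −2.59 ± 0.65 in PEG-fused against NC PNAs. Against Unop nerves it was 1.05 ± 0.72, and this value rested on single libraries: it was −0.072 without Unop 2 and 2.17 without Unop 1. For Cd79b the same comparison gave 0.23 without Unop 2 and 2.86 without Unop 1. Ms4a1 and Cd79b were nearest to each other of all tested genes, with a root mean square difference of 0.36 (log2) between their profiles, each centred over the 8 libraries.

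Among the surface and signalling members, Cd22 and Blk changed least between allograft groups and most from Unop nerves to PEG-fused PNAs. Some surface genes outside the members had values like those of Cd22. In PEG-fused PNAs, log2 fold changes against NC PNAs and Unop nerves were −0.76 and 2.93 for Cd37, and −0.86 and 3.35 for Cd180. Of 12 tested surface genes outside the members, 6 were lower than in NC PNAs by the threshold, beside 7.14% of all tested genes. Cd22 (ENSRNOG00000024000), a sialic acid-binding inhibitory co-receptor of B cells, measured 845.3, 775.9 and 685.7 in PEG-fused PNAs, 1085, 1373 and 1115 in NC PNAs, and 90.1 and 70.04 in Unop nerves. All allografts were thus far above the unoperated nerves, and the gap between allograft groups was small, with a log2 fold change of −0.63 ± 0.15. Cd22 was the only member whose change between allograft groups was under the fold change threshold. Blk (ENSRNOG00000010798), a Src family kinase of the B cell receptor, measured 114.0, 60.8 and 114.4 in PEG-fused PNAs, 182.3, 412.0 and 228.6 in NC PNAs, and 4.29 and 11.3 in Unop nerves. Its groups did not overlap, and its log2 fold changes were −1.47 ± 0.44 for PEG-fused against NC PNAs and 3.54 ± 0.49 for PEG-fused PNAs against Unop nerves.

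Relative to Cd79b, both genes were higher in PEG-fused PNAs, as any gene with a smaller change than Cd79b would be. The ratio of Blk to Cd79b was 6.47, 5.91 and 5.81 in PEG-fused PNAs and 1.92, 3.04 and 3.20 in NC PNAs. For Cd22 it was 48.00, 75.5 and 34.8 against 11.5, 10.1 and 15.6. The ranges of both ratios did not overlap between allograft groups, but Cd79b, the divisor, stood on 11 to 21 reads in PEG-fused PNAs. The share of all tested genes that lie apart on this scale was not computed, so nothing is read from this. In profile over the 8 libraries, Cd22 was nearest to Lgals3bp (root mean square difference 0.12, log2) and its nearest other member, Blk, ranked 725 of all tested genes. Blk was nearest to Pram1 (0.28).

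The members that regulate transcription, Pax5 and Pou2af1, had few reads outside NC PNAs. Pax5 (ENSRNOG00000024729), the factor that commits cells to the B lineage, measured 2.78, 1.87 and 1.88 in PEG-fused PNAs, 15.2, 38.7 and 7.72 in NC PNAs, and 1.07 and 1.25 in Unop nerves. PEG-fused and Unop values stood on 1 to 3 reads each, so their order is not interpretable beyond counting error. The log2 fold change of Pax5 in PEG-fused against NC PNAs was −2.50 ± 0.57, and −1.34 when 8 was added in place of 1. Pou2af1 (ENSRNOG00000011500), the coactivator of Oct factors known as OBF-1, measured 26.0, 12.2 and 26.3 in PEG-fused PNAs, 163.5, 278.6 and 142.8 in NC PNAs, and 8.59 and 2.5 in Unop nerves. It showed the lowest log2 fold change of the members in PEG-fused against NC PNAs, −3.14 ± 0.48, and its 3 groups did not overlap.

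Both members with a role in antibody secretion, Jchain and Mzb1, had lower values in PEG-fused than in NC PNAs. Jchain (ENSRNOG00000003666), the chain that joins IgM and IgA into polymers, measured 138.1, 80.4 and 133.2 in PEG-fused PNAs, 724.7, 309.8 and 308.7 in NC PNAs, and 23.6 and 40.02 in Unop nerves. NC 1 stood above the other NC libraries, and the log2 fold change in PEG-fused against NC PNAs was −1.84 ± 0.39, or −1.43 without NC 1. Mzb1 (ENSRNOG00000022009), an endoplasmic reticulum chaperone that assists antibody assembly, measured 12.98, 1.87 and 6.57 in PEG-fused PNAs, 142.1, 23.7 and 34.7 in NC PNAs, and 3.22 and 2.5 in Unop nerves. NC 1 was again the highest, PEG-fused and Unop values overlapped, and the log2 fold change in PEG-fused against NC PNAs was −2.90 ± 0.76, or −2.14 without NC 1.

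**Figure D2:**
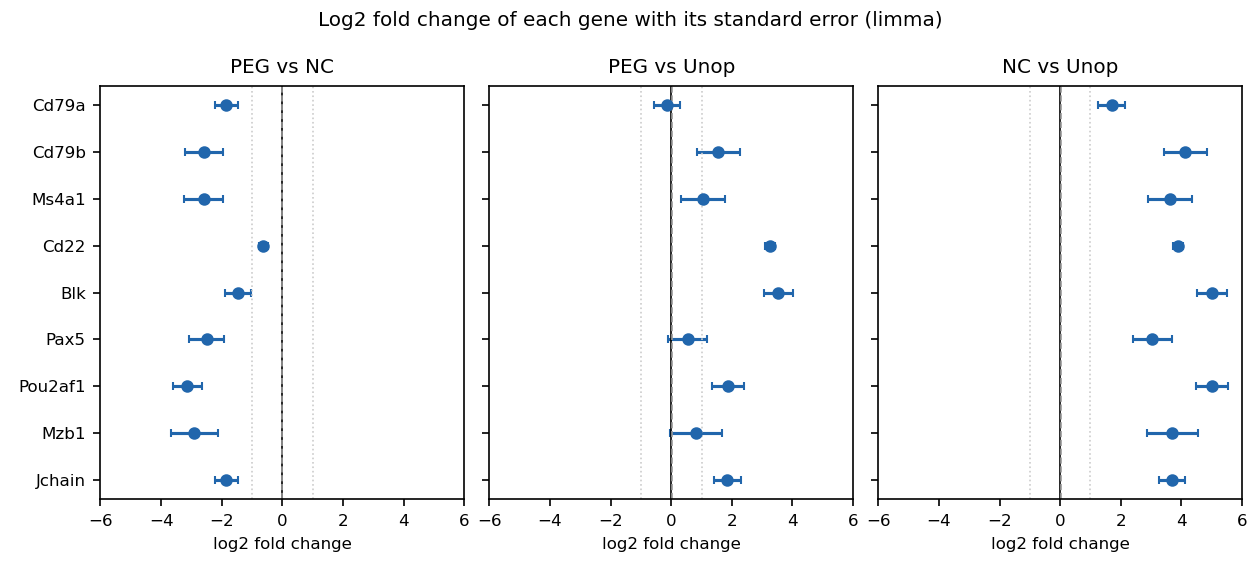
Log2 fold change (points) with its standard error (bars) from limma for the 9 genes in 3 comparisons, with dotted lines at −1 and 1 and a dashed line at the median of all tested genes. Changes of PEG-fused against NC PNAs run from −3.14 for Pou2af1 to −0.63 for Cd22, and those of PEG-fused PNAs against Unop nerves run from −0.14 for Cd79a to 3.54 for Blk.

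Compared with Unop nerves, values of every member were higher in NC PNAs, and those of PEG-fused PNAs lay closer. The comparisons share libraries, so each is given by its own values. In NC PNAs, 8 of 8 members were past the threshold as higher, beside 19.6% of tested genes, and 8 of 8 lay above every Unop value, beside 37.2%, with log2 fold changes between 3.04 (Pax5) and 5.02 (Pou2af1) and a median of 3.79. Cd79a by gene ID had a lower value, 1.70 ± 0.44. Low Unop counts made several of these values depend on the number added before logs. With 8 in place of 1, Pax5 was at 1.49, Ms4a1 at 2.42, Mzb1 at 2.44, Pou2af1 at 3.88 and Blk at 4.11. In PEG-fused PNAs, 4 of 8 members were past the threshold as higher than in Unop nerves, beside 16.7% of tested genes, and 5 of 8 lay above every Unop value, beside 37.3%. The 4 past the threshold were Blk, Cd22 (3.25 ± 0.17), Jchain (1.86 ± 0.44) and Pou2af1 (1.88 ± 0.54). Cd79b, Ms4a1, Mzb1 (0.81 ± 0.85) and Pax5 (0.54 ± 0.64) were not past it. The 5 above every Unop value were those 4 and Pax5, whose order rests on as few as 1 to 3 reads and is not interpretable. The median over the 8 members was 1.70, and it was 0.91 without Unop 2 and 2.39 without Unop 1. Pou2af1 was at 1.15 without Unop 2 and 2.60 without Unop 1, and Blk at 4.14 and 2.93.

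The members did not order the NC libraries alike. Cd79b, Ms4a1, Pax5, Pou2af1, Blk and Cd22 were highest in NC 2, as were 39.0% of tested genes. Jchain and Mzb1 were highest in NC 1, as were 34.3% of tested genes. The ratio of Jchain to Cd79b was 7.65 in NC 1, 2.29 in NC 2 and 4.32 in NC 3, beside 7.84, 7.82 and 6.76 in PEG-fused PNAs. The ratio of Mzb1 to Cd79b was 1.5 in NC 1, 0.17 in NC 2 and 0.49 in NC 3, and in PEG-fused PNAs it ran from 0.18 to 0.74. Secretory genes thus stood highest relative to the receptor gene in NC 1 among NC PNAs.

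Immunoglobulin genes, the products of the same cells, were examined beside Jchain and Mzb1. Of 8 immunoglobulin rows, 3 passed the filter of 10 or more normalized counts in 2 or more libraries, and all 3 were highest in NC 1. Ighm, the constant region of the IgM heavy chain, measured 1414, 503.9 and 1038 in PEG-fused PNAs, 6340, 4740 and 4200 in NC PNAs, and 275.8 and 203.9 in Unop nerves. Its groups did not overlap, and it was lower in PEG-fused than in NC PNAs (log2 fold change −2.47 ± 0.35, adjusted p = 0.00205, limma). Igh-6, annotated as immunoglobulin heavy chain 6, measured 66.7, 15.0 and 93.8 in PEG-fused PNAs, 1407, 182.9 and 449.5 in NC PNAs, and 1.07 and 5.0 in Unop nerves. Its log2 fold change in PEG-fused against NC PNAs was −3.38 ± 0.88 (adjusted p = 0.0231, limma), and the adjusted p was 0.0543 without NC 1, 0.0560 without NC 3 and 0.0741 without PEG 2, within 0.00230 to 0.0741 over all alternatives.

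The Ig lambda-2 chain C region (AABR07034739.1), of the light chain, measured 231.7, 138.4 and 294.6 in PEG-fused PNAs, 1560, 587.4 and 307.7 in NC PNAs, and 9.66 and 10.01 in Unop nerves. PEG-fused values lay below NC values with a narrow gap, and the difference did not pass the threshold (log2 fold change −1.63 ± 0.54, adjusted p = 0.0534, limma). Without NC 3 the adjusted p was 0.0172, with a range of 0.00113 to 0.171 over all alternatives. All 3 genes were above Unop nerves in PEG-fused PNAs, with log2 fold changes from 1.93 (Ighm) to 4.29 (the lambda-2 chain). For Igh-6 this was 3.73 ± 0.99 (adjusted p = 0.0113, limma), with an adjusted p of 0.0975 without Unop 1 and no less than 0.00211 under any alternative. Immunoglobulin genes resemble each other, so the counting could divide reads among rows.

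NC 1 stood apart in other genes as well. The 5 Schwann cell markers were all highest there among NC PNAs, and their summed count was 63088 in NC 1 beside 23061 and 17847 in NC 2 and NC 3. All 6 T cell markers were lowest in NC 1 and highest in NC 2. The part of these differences in the values of Jchain, Mzb1 and immunoglobulin genes was not tested.

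**Figure D3:**
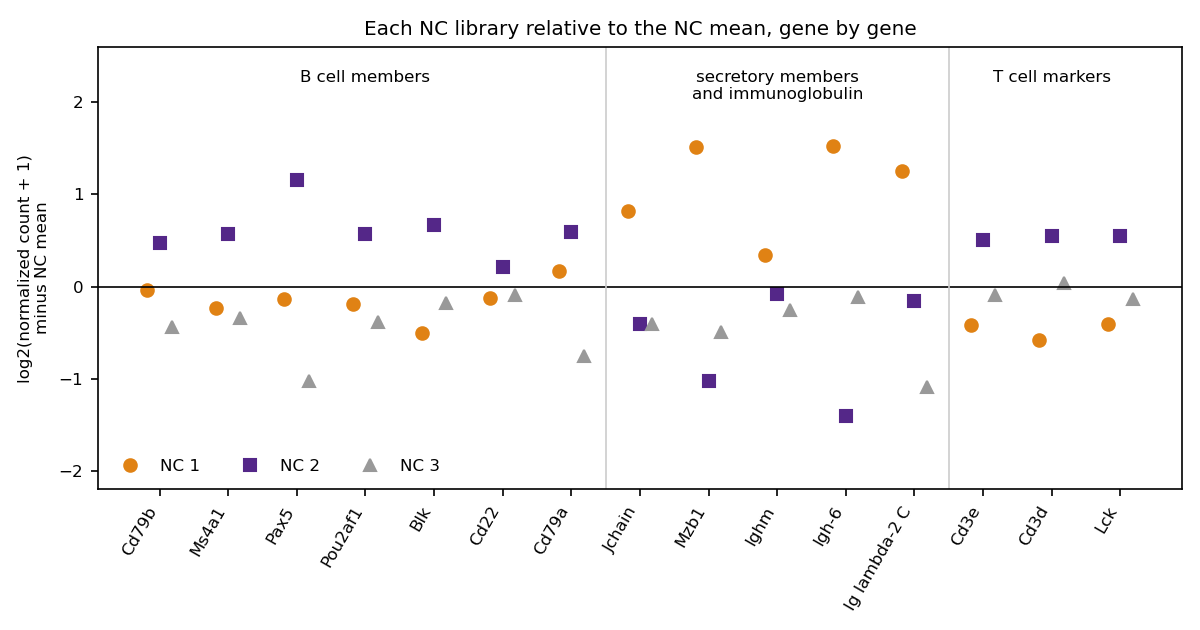
Log2(normalized count + 1) of each of the 3 NC libraries minus the NC mean, for 7 B cell genes, for Jchain, Mzb1 and 3 immunoglobulin genes, and for 3 of the 6 T cell markers. NC 2 is highest for the B cell genes and T cell markers, and NC 1 is highest for Jchain, Mzb1 and the immunoglobulin genes.

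Among PEG-fused PNAs, 7 of 8 members were lowest in PEG 2, as were 34.2% of tested genes, and Cd22 was lowest in PEG 3. Pax5, 1 of the 7, had 2 reads in PEG 2 and 2 in PEG 3, so its order between them comes from the size factors alone. T cell markers (Cd3e, Cd3d, Cd3g, Cd2, Cd5 and Lck) were also all lowest in PEG 2. Their summed count was 1066 in PEG 2, 3230 in PEG 1 and 2820 in PEG 3, between 14880 and 29632 in NC PNAs and 162.6 and 299.4 in Unop nerves. All 6 were lower in PEG-fused than in NC PNAs by the DEG threshold, beside 7.14% of all tested genes, with a median log2 fold change of −3.29.

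The members were also set against the T cell markers library by library, per 1000 of their summed count. Cd79b stood at 5.45, 9.65 and 6.99 in PEG-fused PNAs and 6.37, 4.57 and 3.81 in NC PNAs. Pou2af1 stood at 8.03, 11.4 and 9.31 beside 11.0, 9.40 and 7.61, and Ms4a1 at 5.16, 4.39 and 3.33 beside 3.42, 3.01 and 2.52. Cd22 and Blk did not overlap on this scale: Blk stood at 35.3, 57.02 and 40.6 in PEG-fused PNAs and 12.3, 13.9 and 12.2 in NC PNAs. For Cd22 the values were 261.7, 728.1 and 243.2 beside 72.9, 46.3 and 59.4. On this scale 6 of 8 members overlapped between the allograft groups, beside 6.27% of all tested genes. Blk and Cd22 lay above NC PNAs in PEG-fused PNAs, as did 93.5% of tested genes, since the T cell sum itself was much lower there. The members were known to differ between these groups when chosen, so nothing is read from this count either.

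Markers of other cells that can carry some of these genes were examined beside Blk, Mzb1 and Cd22. Blk and Mzb1 are also known from plasmacytoid dendritic cells, and Blk from IL-17-producing T cells. Siglech, a marker of plasmacytoid dendritic cells, measured 234.5, 121.5 and 317.1 in PEG-fused PNAs, 377.1, 534.7 and 251.8 in NC PNAs, and 9.66 and 2.5 in Unop nerves. Like Blk, Siglech was higher in all allografts than in Unop nerves. Unlike those of Blk, its allograft groups overlapped (log2 fold change −0.83 ± 0.50, adjusted p = 0.251, limma). Pacsin1, another such marker, measured 87.1, 77.6 and 94.7 in PEG-fused PNAs, 130.5, 204.4 and 112.9 in NC PNAs, and 9.66 and 3.75 in Unop nerves. PEG-fused values of Pacsin1 all lay below its NC values, while those of Tcf4 all lay above. Of the 4 markers of this type, 1 (Cox6a2) passed the threshold as lower in PEG-fused than in NC PNAs. Cox6a2, also a muscle gene, was at 5176 in NC 1, and its groups overlapped. Set against Unop nerves, 2 markers (Siglech and Pacsin1) passed as higher. The summed count of the 4 markers was 1419 to 1848, 1833 to 6728 and 1553 to 1792 in the PEG-fused, NC and Unop groups. Tcf4 made up most of this sum in PEG-fused PNAs (1209 to 1398) and Unop nerves (1354 to 1483). Cox6a2 made up most of it in NC 1 and NC 3. The sum thus did not follow Siglech and Pacsin1.

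Of 4 markers of IL-17-producing and gamma delta T cells, 3 were tested and 0 passed the threshold between the allograft groups. Their summed count was 1211 to 1282, 803.4 to 843.4 and 1762 to 2171 in the PEG-fused, NC and Unop groups, most of it from Sox13 and Il17re. Il23r measured 6.49, 6.54 and 34.7 in PEG-fused PNAs and 17.0, 101.1 and 67.5 in NC PNAs, which overlapped (−1.99 ± 0.86, adjusted p = 0.118, limma). The 5 myeloid markers summed to 47157 to 50294 in PEG-fused PNAs, 49829 to 63504 in NC PNAs and 7928 to 10754 in Unop nerves. By the threshold, 1 of 5 (Adgre1) was lower in PEG-fused than in NC PNAs. The markers did not move alike. Cd68, the largest part of the PEG-fused sums, was 20030 to 22451 in PEG-fused PNAs, above its NC values of 14060 to 18968. PEG-fused values of Adgre1, Csf1r and Cd14 all lay below their NC values, and those of Itgam overlapped. The part of these cells in the values of Blk, Mzb1 and Cd22 was not tested.

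The other genes of the B lineage were taken from 8 lists on receptors, signalling, transcription, secretion, germinal centres, ligands, precursors and immunoglobulin. Of 89 genes named, 87 had a row and 69 passed the filter. In PEG-fused against NC PNAs, 30 of 69 were lower and 0 were higher by the DEG threshold, beside 7.14% and 4.41% of all tested genes. With no fold change threshold, 48 passed an adjusted p under 0.05 in either direction, beside 4763 of all 16478 tested genes. The count of 30 ran from 25 to 31 with each library left out. The median log2 fold change was −0.95, nearer to 0 than that of the members. These lists were drawn up with earlier results of the same libraries known. The share of 7.14% also stands beside the counts of lower genes given below for single lists.

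Surface receptors were lower in 6 of 12 tested. Tnfrsf13c, the BAFF receptor on which B cell survival depends, measured 13.9, 4.67 and 10.3 in PEG-fused PNAs, 85.8, 63.5 and 61.7 in NC PNAs, and 1.07 and 1.25 in Unop nerves (log2 fold change −2.84 ± 0.41, adjusted p = 0.00221, PEG-fused against NC PNAs, limma). Tnfrsf13b, the related receptor TACI, was also lower (−3.01 ± 0.58, adjusted p = 0.00711), with −3.60 without PEG 1. Of the 12, Cr2 had PEG-fused values above its NC values.

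Cxcr5, the receptor that guides B cells to follicles, showed another order. It measured 50.1, 29.0 and 37.5 in PEG-fused PNAs, 80.4, 125.9 and 72.3 in NC PNAs, and 92.3 and 123.8 in Unop nerves, so that NC and Unop values overlapped and PEG-fused values lay below both. The difference from NC PNAs (−1.23 ± 0.30, adjusted p = 0.0175, limma) was no longer significant without PEG 2 (adjusted p = 0.0657) or PEG 3 (0.0531), within 0.00253 to 0.0657 over all alternatives, and that from Unop nerves was −1.47 ± 0.33 (adjusted p = 0.00539).

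Signalling genes downstream of the receptor, many of which myeloid cells also use, were lower in 6 of 14 tested (Bank1, Dapp1, Pik3ap1, Plcg2, Prkcb and Ptpn6), with a median log2 fold change of −0.80. Blnk, the adaptor next to the receptor, measured 2221, 2028 and 2756 in PEG-fused PNAs, 1517, 1693 and 1651 in NC PNAs, and 171.7 and 126.3 in Unop nerves. Its PEG-fused values lay above its NC values, by less than the fold change threshold (0.52 ± 0.15, adjusted p = 0.0343, limma). Against Unop nerves, the PEG-fused value was higher by 3.97 ± 0.17 (adjusted p = 1.38e-06).

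Transcription factors were lower in 6 of 12 tested (Bach2, Ikzf1, Ikzf3, Irf8, Pou2f2 and Spib). Ikzf3, which encodes the lymphocyte factor Aiolos, measured 60.2, 11.2 and 89.1 in PEG-fused PNAs, 188.6, 447.5 and 303.9 in NC PNAs, and 4.29 and 8.76 in Unop nerves. Its log2 fold change in PEG-fused against NC PNAs was −2.86 ± 0.71 (adjusted p = 0.0191, limma), with an adjusted p of 0.0540 without NC 2 and 0.0526 without NC 3, within 0.000188 to 0.0540 over all alternatives, and the log2 fold change was −1.99 without PEG 2. Spib, shared by B cells and plasmacytoid dendritic cells, was higher in PEG-fused PNAs against Unop nerves (4.03 ± 0.45, adjusted p = 0.000121) and higher still in NC PNAs (5.42 ± 0.45 against Unop nerves).

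Among plasma cell and secretion genes, 4 of 11 tested were lower in PEG-fused than in NC PNAs (Cd38, Irf4, Prdm1 and Slamf7) and the median was 0.0080. Prdm1, which encodes the plasma cell regulator Blimp-1 and is also used by T cells, measured 264.2, 173.9 and 165.1 in PEG-fused PNAs, 386.0, 763.8 and 618.3 in NC PNAs, and 38.6 and 46.3 in Unop nerves (−1.52 ± 0.28, adjusted p = 0.00595, PEG-fused against NC PNAs, limma). Irf4, its partner in plasma cells, had a log2 fold change of −1.65 ± 0.18 (adjusted p = 0.000897). Both were highest in NC 2, unlike Jchain and Mzb1.

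The other 7 tested genes of this list did not pass the threshold between the allograft groups. Txndc5, Pdia4 and Hsp90b1, which fold proteins in the endoplasmic reticulum of many cells, were above NC PNAs in every PEG-fused library, with log2 fold changes of 0.61 ± 0.099, 0.45 ± 0.15 and 0.36 ± 0.14 (adjusted p = 0.00350, 0.04995 and 0.0845, limma). Xbp1, the factor of the secretory program in many cells, had log2 fold changes of 0.0080 ± 0.12 against NC PNAs and 0.29 ± 0.13 against Unop nerves (adjusted p = 0.969 and 0.0898, limma). Sdc1, the plasma cell surface marker CD138 that epithelial and stromal cells also carry, measured 3178, 4150 and 4194 in PEG-fused PNAs, 1351, 4322 and 3751 in NC PNAs, and 910.1 and 594.1 in Unop nerves. Its allograft groups overlapped (0.45 ± 0.40, adjusted p = 0.441, limma), and it was lowest in NC 1, where Jchain and Mzb1 were highest. Tnfrsf17, the plasma cell survival receptor BCMA, was too low to test, and its PEG-fused values lay below its NC values, with 1.85, 2.80 and 0.94 in PEG-fused PNAs, 13.4, 9.68 and 8.68 in NC PNAs, and 1.07 and 2.5 in Unop nerves.

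Germinal centre genes were few among those tested. Of 5 genes tested, Gcsam and Il21r were lower in PEG-fused than in NC PNAs. Il21r, a receptor that B and T cells share, measured 1032, 567.5 and 788.0 in PEG-fused PNAs, 3164, 6052 and 3905 in NC PNAs, and 69.8 and 40.02 in Unop nerves, with a log2 fold change of −2.45 ± 0.31 (adjusted p = 0.00145, limma).

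Ligands that recruit or help B cells held the 3 lowest log2 fold changes of the 8 B lineage lists in PEG-fused against NC PNAs. Lta, which encodes lymphotoxin alpha, measured 14.8, 3.74 and 7.50 in PEG-fused PNAs, 367.3, 342.1 and 145.7 in NC PNAs, and 1.07 and 2.5 in Unop nerves (log2 fold change −4.94 ± 0.54, adjusted p = 0.000897, PEG-fused against NC PNAs, limma). Cxcl13, the chemokine that attracts B cells through Cxcr5, measured 1461, 618.0 and 351.8 in PEG-fused PNAs, 6178, 16983 and 14416 in NC PNAs, and 618.2 and 504.0 in Unop nerves. PEG-fused values of Cxcl13 overlapped those of Unop nerves (0.29 ± 0.59, adjusted p = 0.696) and lay far below those of NC PNAs (−4.07 ± 0.53, adjusted p = 0.00150).

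Ccl19, a chemokine of lymphoid tissue, measured 51.9, 7.48 and 99.4 in PEG-fused PNAs, 455.7, 1036 and 248.9 in NC PNAs, and 56.9 and 46.3 in Unop nerves (−3.79 ± 0.87, adjusted p = 0.0139, PEG-fused against NC PNAs, limma), and the log2 fold change was −2.75 without PEG 2 and −4.53 without PEG 3. Cd40lg, the T cell ligand that helps B cells through Cd40, was lower by the same test (−2.85 ± 0.57, adjusted p = 0.00779), with −2.23 without PEG 2. Ccl21, which shares its receptor with Ccl19, was instead highest in Unop nerves, at 15435 and 5393, beside 8.41 to 294.6 in PEG-fused and 49.5 to 196.8 in NC PNAs, and its allograft groups overlapped (−1.42 ± 1.16, adjusted p = 0.392). The B cell survival factors Tnfsf13b (BAFF) and Tnfsf13 (APRIL) had log2 fold changes between the allograft groups of −0.46 ± 0.22 and 0.088 ± 0.12 (adjusted p = 0.146 and 0.613).

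**Figure D4:**
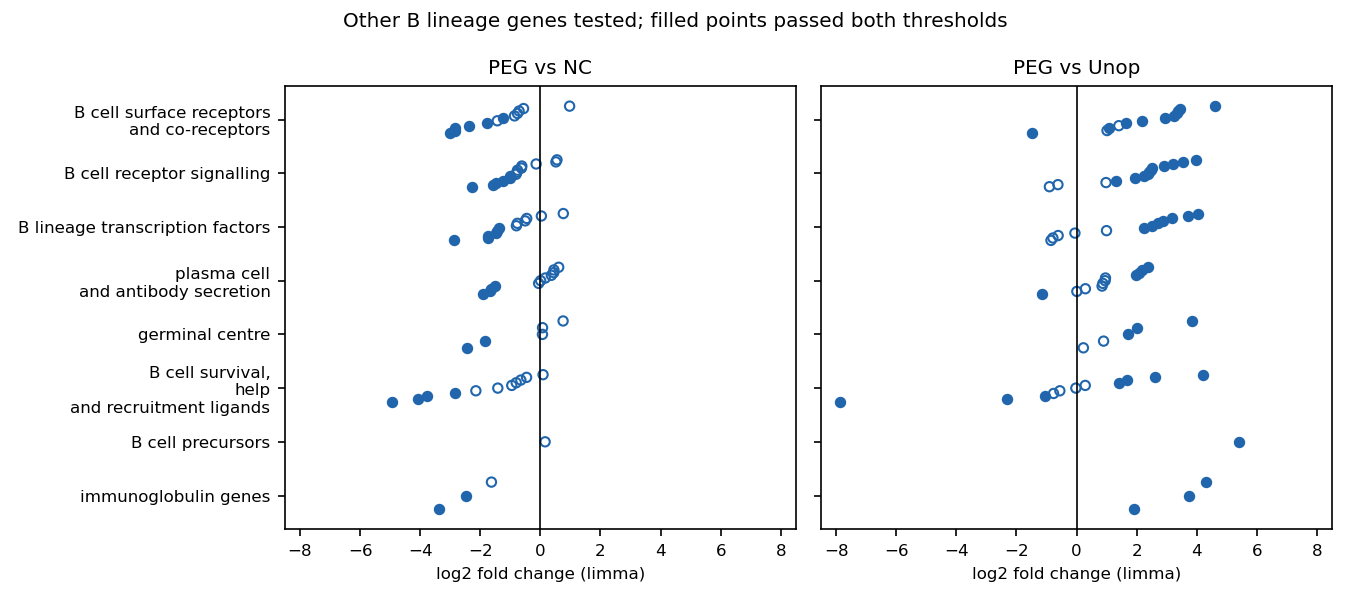
Log2 fold change (limma) of the 69 tested B lineage genes outside the member list, by list, for PEG-fused against NC PNAs and for PEG-fused PNAs against Unop nerves. Each point is 1 gene, spread vertically for legibility, and filled points passed the fold change and adjusted p thresholds: 30 lower and 0 higher in the first comparison, 5 lower and 42 higher in the second.

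Against Unop nerves, 42 of the 69 genes were higher in PEG-fused PNAs and 5 lower (Ccl21, Cxcl12, Cxcr5, Il21 and Sec11c), beside 16.7% and 15.6% of all tested genes. In NC PNAs, 50 were higher and 4 lower (Ccl21, Cd81, Ebf1 and Sec11c), beside 19.6% and 19.0%. Cr2, the complement receptor CD21, measured 128.8, 162.7 and 182.0 in PEG-fused PNAs, 67.9, 128.0 and 56.9 in NC PNAs, and 17.2 and 1.25 in Unop nerves. Its PEG-fused values lay above its NC values, unlike those of any member, and this difference did not pass the test (0.97 ± 0.69, adjusted p = 0.319, limma), while that from Unop nerves did (4.62 ± 0.77, adjusted p = 0.00107), at 3.11 without Unop 2 and 6.13 without Unop 1.

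Further genes with large changes against Unop nerves were a cytokine, receptors and ligands, immunoglobulin genes and a transcription factor. Il6, a cytokine that supports plasma cells among many roles, measured 70.4, 49.5 and 32.8 in PEG-fused PNAs, 70.6, 78.5 and 82.0 in NC PNAs, and 2.15 and 1.25 in Unop nerves (4.22 ± 0.37 in PEG-fused PNAs, adjusted p = 3.17e-05, limma). In NC PNAs against Unop nerves, log2 fold changes were 7.11 ± 0.99 for Igh-6, 6.62 ± 0.60 for Lta, 6.29 ± 0.35 for Il21r, 5.92 ± 0.60 for the lambda-2 chain and 5.46 ± 0.63 for Cd40lg. Irf8, a factor of B cells, dendritic cells and macrophages, reached 5.45 ± 0.30 in that comparison (adjusted p = 2.13e-06, limma) and 3.69 ± 0.30 in PEG-fused PNAs (adjusted p = 2.04e-05). Il21r reached 3.84 ± 0.35 in PEG-fused PNAs (adjusted p = 3.97e-05).

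Of 7 genes of B cell precursors, Dntt alone was tested. Dntt, the polymerase that adds bases at antigen receptor joints in immature lymphocytes, measured 177.0, 97.2 and 156.7 in PEG-fused PNAs, 102.8, 143.1 and 132.2 in NC PNAs, and 2.15 and 2.5 in Unop nerves. Its allograft groups overlapped and both lay far above Unop nerves (5.40 ± 0.31 in PEG-fused PNAs, adjusted p = 4.52e-06, limma). The recombinase genes Rag1 and Rag2 were between 0 and 1.25 in every library, and Igll1 and Il7r were listed at 0. The 4 markers of lymph node stroma summed to between 8.34 and 35.5 in a library, with Fdcsp at 0 in all of them.

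Over the 8 libraries, the genes nearest to the mean centred profile of the members were AABR07006275.1 (root mean square difference 0.20, log2), Gpr132 (0.21), Rhoh (0.22), Grap (0.24) and AABR07040847.1 (0.24). The members themselves were farther from it, between 0.51 for Jchain and 0.86 for Blk. The nearest other member was Mzb1 for Jchain (0.76, rank 446 of all tested genes), Jchain for Mzb1 (rank 27), Ms4a1 for Pax5 (0.78, rank 274) and Cd79b for Pou2af1 (0.47, rank 34). Apart from Cd79b and Ms4a1, each member thus had a gene outside the list nearer to it than any member.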

How the data were processed

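RNA of 8 sciatic nerves was sequenced from TruSeq stranded poly-A libraries. The authors aligned reads to Rnor 6.0 with Tophat2, obtained gene counts with HTSeq-count and scaled these by DESeq2 size factors, and the deposited signal is this normalized read count. Their deposited fold changes and p-values of 3 comparisons were not used. Whole reads were recovered for 100% of values within 0.001 (size factors 0.800 to 1.12). Limma 3.58.1 (trend, R 4.3.3) was fitted to log2(normalized count + 1) of all 8 libraries, which understates changes of low genes. It covered 16478 of 22798 genes with a read, those with 10 or more normalized counts in 2 or more libraries, and p-values were adjusted over them (Benjamini-Hochberg). For members, the thresholds are given as a description only.

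The members and lists were chosen with earlier results of these data known. Named genes are the members, 13 set B lineage genes, the 3 most abundant immunoglobulin genes, the 8 called list genes with the largest change per comparison and the genes with the nearest profiles. A few of these and of the marker genes are not reported here. Other genes named are examples and markers chosen with values known. Alternatives were edgeR 4.0.16 and DESeq2 1.42.0 on recovered reads, TMM factors, other filters and pseudocounts, no fold change threshold, only the 2 groups compared, a replicate block and each library left out. Limma was tested on simulated data. Comparisons with the 2 Unop nerves rest on a spread shared by the 3 groups. Promoters are from RefSeq (GRCr8), a different assembly from that of the counts.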

Additional observations from a re-analysis of the deposited data

How the results depend on the processing

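Directions of the members' medians held under all alternatives run. With 8 added before logs the median of PEG-fused against NC PNAs was −1.87. The median of NC PNAs against Unop nerves was 3.18 at its lowest over all alternatives. With no fold change threshold, 4763 genes passed in PEG-fused against NC PNAs (1903 with it), 48 of the other B lineage genes (30 with it), 9513 genes in PEG-fused PNAs against Unop nerves (5326) and 10627 in NC PNAs against Unop nerves (6359). With each library left out in turn, called genes ran from 1333 to 1882, from 4915 to 5439 and from 5999 to 6409 in these comparisons. Other B lineage genes ran from 25 to 31, 43 to 48 and 52 to 55, and medians of the members from −2.78 to −2.17, 0.91 to 2.39 and 3.64 to 4.23.

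Values near 0 changed sign when libraries were left out, and the cause was not tested. In PEG-fused against NC PNAs, Xbp1 ran from −0.058 (without NC 3) to 0.099, Tnfsf13 from −0.013 (without NC 1) to 0.15 and Sdc1 from −0.080 (without NC 1) to 0.76. Xbp1 was also below 0 without PEG 1, PEG 3 or NC 2. In PEG-fused PNAs against Unop nerves, Cxcl13 ran from −0.26 (without PEG 1) to 0.77 and Tnfsf13b from −0.40 (without Unop 2) to 0.35 (without Unop 1). Ms4a1 went from 2.17 without Unop 1 to −0.072 without Unop 2. Sdc1 in NC PNAs against Unop nerves had an adjusted p of 0.0555 without Unop 2 (limma), within 1.10e-06 to 0.0555 over all alternatives.

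Replicate numbers were not taken to pair the libraries: deviations of PEG-fused and NC libraries with the same number correlated at 0.11, 0.11 and −0.050 over genes, and PEG 3 did not correlate best with NC 3. The 4 same-number pairs with Unop nerves, of which there were only 2, gave 0.14 to 0.16. With replicate number as a block, the replicate block fit called 1844, 5193 and 6213 genes and 29, 46 and 53 other B lineage genes, with medians of the members of −2.54, 1.73 and 3.86. Xbp1 passed an adjusted p of 0.05 against Unop nerves only under this block or without Unop 1.

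Depth limits Pax5, Mzb1, Ms4a1 and Cd79b, which stood on 1 to 21 reads in PEG-fused and Unop libraries. It also limits the changes of Pou2af1 and Blk against Unop nerves, where they stood on 8 and 2 and on 4 and 9 reads. In PEG-fused PNAs, Pou2af1 stood on 13 to 28 reads. With 8 added before logs, Blk in PEG-fused PNAs against Unop nerves was at 2.71.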
